A study of Mus musculus with 4 samples.

Results

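Sites where JunB, BATF and IRF4 peaks coincide in activated regulatory T (Treg) cells, and where the IRF4 peak stayed in place in cells lacking Junb, were described here from chromatin immunoprecipitation followed by sequencing (ChIP-seq). Such a site was an IRF4 peak of Junb-sufficient cells that overlapped, by at least 1 bp, a JunB peak, a BATF peak and an IRF4 peak of Junb-deficient cells. It was chosen by its IRF4 place, the row number in a peak list as a percentage of the list length, which had to be less than 30 points lower down the list without Junb. Of 31093 IRF4 peaks in Junb-sufficient cells, 8960 overlapped both a JunB and a BATF peak and are called triple sites. Of these, 6589 met the rule and are called kept sites, 903 had an IRF4 peak 30 points or more lower down without Junb, and 1468 had no overlapping IRF4 peak without Junb and are called missing sites. The IRF4 lists of both genotypes chose the kept sites, so their IRF4 places are given as descriptions. DNA sequence, genomic position and the places of the JunB and BATF peaks had no part in the rule.

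Splenic CD4+CD25+ Treg cells of C57BL/6 mice were activated for 60 h with anti-CD3 and anti-CD28 antibodies and IL-2. JunB, BATF and IRF4 were precipitated from Junb-sufficient cells and IRF4 from Junb-deficient cells, with 1 library per condition analysed here. The labels name the genotypes Foxp3cre JUNB+/+ and Foxp3cre JUNBFl/Fl, whereas the methods name Junb fl/fl and Cd4Cre Junb fl/fl, a Cre active in developing T cells at large and not in Treg cells alone. With 1 library per genotype, a difference between libraries cannot be told apart from a difference between genotypes, and no test between genotypes was made.

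JunB and BATF are basic leucine zipper proteins of the AP-1 family, which bind as dimers to a short palindrome read as TGA and TCA around a middle base. IRF4 binds a GAAA core weakly by itself, and binds firmly beside a BATF dimer at composite elements or at repeated GAAA cores. In T cells JunB, JunD and c-Jun can each serve as the partner of BATF, and BATF and IRF4 are needed for the effector state of Treg cells.

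Peak numbers in the Junb-sufficient libraries were 29659 for JunB, 13570 for BATF and 31093 for IRF4, and the Junb-deficient library had 29033 for IRF4, from 21127029 to 27399986 recorded tags (aligned reads). JunB peaks were 151 bp wide and the others 605 or 613 bp. The lists carry no height per peak, so place in the list stood in for it. The antibody field of the labels exchanges BATF and IRF4 for the Junb-sufficient libraries, against titles and file headers. Of Junb-deficient IRF4 peaks, 69.6% overlapped the list titled IRF4 and 35.0% the shorter list titled BATF. Over the first 13570 peaks of each list the shares were 68.3% and 55.6%. Titles were used throughout, and the identity of the cells was not checked, since no RNA is in these lists.

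Composite elements at kept sites are printed first, because they carry AP-1 and IRF letters in the spacing known for BATF with IRF4. These are 9 of the 10 kept sites that stood first in the Junb-sufficient IRF4 list among those with GAAA directly before TGANTCA (N for any base) within 100 bp of the IRF4 or JunB peak centre. Each is named by the nearest protein-coding transcription start site (TSS), read on the strand of the element from mm9 with 20 bases on either side, and the element is in capitals.
Enpp6 (chr8:48026825-48026875, plus strand, intergenic): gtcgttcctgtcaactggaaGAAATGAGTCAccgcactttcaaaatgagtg
E130308A19Rik (chr4:59695518-59695568, plus strand, intron of E130308A19Rik): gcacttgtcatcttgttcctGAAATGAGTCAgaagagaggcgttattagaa
Il13 (chr11:53470558-53470608, plus strand, intron of Rad50): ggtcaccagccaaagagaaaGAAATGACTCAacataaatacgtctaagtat
Gm17384 (chr5:63207110-63207160, plus strand, intron of Gm17384): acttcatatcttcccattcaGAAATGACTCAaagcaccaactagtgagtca
Tomm20 (chr8:129391613-129391663, plus strand, intergenic): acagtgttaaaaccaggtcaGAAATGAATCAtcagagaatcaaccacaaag
Odz4 (chr7:103963298-103963348, plus strand, intron of Odz4): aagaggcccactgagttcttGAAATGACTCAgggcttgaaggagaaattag
Aff4 (chr11:53160939-53160989, minus strand, intergenic): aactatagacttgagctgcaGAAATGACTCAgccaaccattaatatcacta
Oxsr1 (chr9:119175014-119175064, minus strand, intron of Oxsr1): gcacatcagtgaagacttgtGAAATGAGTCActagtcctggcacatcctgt
Cuedc1 (chr11:87917032-87917082, plus strand, intron of Cuedc1): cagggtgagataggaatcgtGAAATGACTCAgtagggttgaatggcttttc

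The element named for Il13 lay in an intron of Rad50, the gene that houses the locus control region of the T helper 2 cytokines. The middle base of the AP-1 part was C or G in all but the element named for Tomm20. Over all kept sites there were 193 matches of this element within 100 bp of the IRF4 centre, with C in the middle of 99, G in 70, A in 16 and T in 8. A pair of further examples, chosen after their values were seen, lie beside genes of Treg function.
Ctla4 and Icos (chr1:60996004-60996054, plus strand, intergenic): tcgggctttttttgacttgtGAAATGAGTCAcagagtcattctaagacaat
Foxp3 (chrX:7142690-7142740, plus strand, intron of Ppp1r3f): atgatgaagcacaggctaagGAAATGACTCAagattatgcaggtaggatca

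The element between Ctla4 and Icos, an inhibitory and a costimulatory receptor, stood at place 192 of the Junb-sufficient and 175 of the Junb-deficient IRF4 list. The paper reports that some IRF4 peaks between these genes were reduced without JunB. In a region downstream of the Ctla4 TSS, it reports significantly less IRF4 binding without JunB, by ChIP-seq and by ChIP-PCR. The kept site that holds the element printed here lay 30020 bp from the Ctla4 TSS. The paper gives a similar distance for its region. Whether that region includes the site printed here was not tested, and place is no measure of binding strength. The element near Foxp3, the lineage factor of Treg cells, stood at places 4653 and 4697. The spaced form of the element has TTTC, 4 bases, and then TGANTCA. Its first 3 kept sites in the list, also chosen after values were seen, are printed with the fixed letters in capitals.
Gpr15 (chr16:58697105-58697159, minus strand, intergenic): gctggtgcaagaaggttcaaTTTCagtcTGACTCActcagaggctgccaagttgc
Txndc16 (chr14:45722184-45722238, minus strand, intergenic): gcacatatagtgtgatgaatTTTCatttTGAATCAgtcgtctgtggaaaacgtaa
Nf2 (chr11:4705079-4705133, minus strand, intron of Nf2): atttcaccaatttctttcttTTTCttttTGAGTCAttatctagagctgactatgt

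Reference sequence under whole JunB peaks is printed for examples of kept sites. In the next sequences, read on the plus strand of mm9, capitals mark AP-1 sites with any middle base, GAAA pairs 2 bases apart, both composites, RUNX words (TGTGGTT) and words of GATA factors (AGATAA) on either strand. The JunB peaks of kept sites near Prdm1, Il10, S1pr1 and Irf4 were chosen after values were seen.
Prdm1 (chr10:44164308-44164458, plus strand, intron of Prdm1): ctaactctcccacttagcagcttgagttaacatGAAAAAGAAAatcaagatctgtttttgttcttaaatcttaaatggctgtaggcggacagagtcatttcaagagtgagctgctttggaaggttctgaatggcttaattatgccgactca
Il10 (chr1:132890415-132890565, plus strand, intergenic): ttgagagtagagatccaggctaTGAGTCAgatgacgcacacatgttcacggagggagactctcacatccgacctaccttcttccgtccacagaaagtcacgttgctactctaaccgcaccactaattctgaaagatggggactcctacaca
S1pr1 (chr3:115464333-115464483, plus strand, intergenic): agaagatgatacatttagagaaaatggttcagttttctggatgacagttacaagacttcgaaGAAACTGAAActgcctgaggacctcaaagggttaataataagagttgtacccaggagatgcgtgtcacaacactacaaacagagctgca
Irf4 (chr13:30839376-30839526, plus strand, intergenic): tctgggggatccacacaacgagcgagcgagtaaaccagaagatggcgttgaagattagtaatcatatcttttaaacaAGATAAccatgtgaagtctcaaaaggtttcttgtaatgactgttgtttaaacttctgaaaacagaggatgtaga

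The Prdm1 and S1pr1 peaks held a GAAA pair and no AP-1 site, the Il10 peak held an AP-1 site and the Irf4 peak a GATA word. The JunB peaks of the 3 missing sites that stood first in the list are printed too, as examples from which no difference can be read. The bases within 100 bp of their IRF4 centres each held an AP-1 site, though the JunB peak of the first did not.
Gm17379 (chrX:166433381-166433531, plus strand, intron of Mid1): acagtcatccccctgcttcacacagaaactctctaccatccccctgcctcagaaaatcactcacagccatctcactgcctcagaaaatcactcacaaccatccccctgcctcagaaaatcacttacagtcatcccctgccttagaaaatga
Ptp4a2 (chr4:129500549-129500699, plus strand, intron of Ptp4a2): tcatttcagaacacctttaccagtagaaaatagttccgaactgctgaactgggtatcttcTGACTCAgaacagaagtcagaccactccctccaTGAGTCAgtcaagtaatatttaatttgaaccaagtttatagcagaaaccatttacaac
Celf2 (chr2:6515534-6515684, plus strand, intron of Celf2): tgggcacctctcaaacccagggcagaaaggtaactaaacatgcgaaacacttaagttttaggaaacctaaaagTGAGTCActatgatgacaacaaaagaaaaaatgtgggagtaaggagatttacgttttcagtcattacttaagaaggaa

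**Figure D1:**
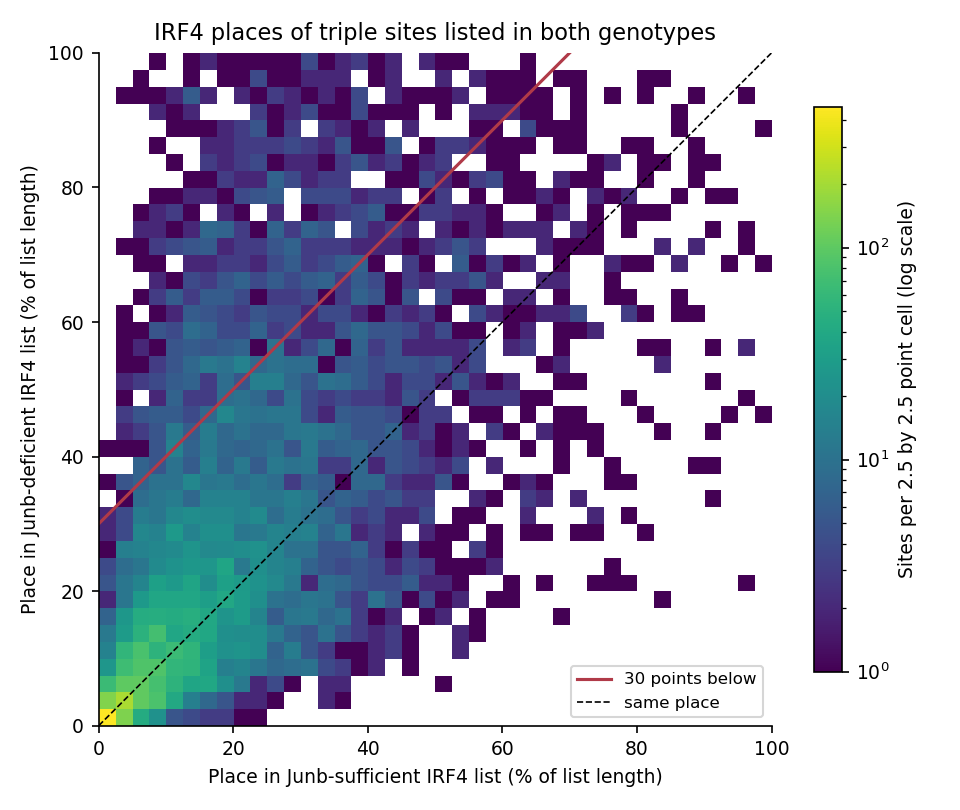
Place of each triple site listed in both genotypes, as a percentage of list length, in the Junb-sufficient IRF4 list (horizontal) and the Junb-deficient IRF4 list (vertical), with the number of sites per cell on a log color scale. The 6589 kept sites lie below the red line, which marks 30 points lower in the list, and are densest at the head of both lists, while 903 sites lie on or above it.

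Kept sites made up 73.5% of triple sites (95% exact interval 72.6 to 74.4%) and 21.2% of all Junb-sufficient IRF4 peaks. By the same rule 59.6% of all IRF4 peaks were kept, 54.0% of those that were no triple site, and 52.6% of the 3558 that overlapped a JunB but no BATF peak. These shares follow from the rule and from the place in the list. Of the 1491 triple sites in the first 5% of the IRF4 list, 1434 were kept (96.2%), beside 79.4% of the 63 other IRF4 peaks there. Between 10 and 20% of the list 76.0% of triple sites and 79.2% of other peaks were kept, and between 20 and 40% the shares were 61.6% and 70.1%. The share of triple sites was above that of other IRF4 peaks in the first 10% of the list and below it between 10 and 60%. From 60% of the list onward the shares were 47.5% and 43.7%. Beyond place 70% no site can be 30 points lower, and 7 triple sites past 60% had a Junb-deficient peak below the limit.

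The median kept site stood at 13.2% of the Junb-sufficient list (quartiles 5.81 and 25.2%) and at 15.8% of the Junb-deficient list (6.61 and 30.1%). Of the kept sites 2671 stood higher without Junb and 3918 lower, and 4398 (66.7%) moved by no more than 10 points either way. Missing sites had stood at a median of 33.6% in Junb-sufficient cells. A Junb-deficient IRF4 peak had its centre within 5000 bp of 404 missing sites (27.5%) and within 1000 bp of 21. The rule itself limits the count within 1000 bp, since peaks of 605 or 613 bp with close centres overlap. Whether peaks were displaced by a short distance was not tested.

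The head of the list was taken up by repeated sequence. The central 36 bases of the JunB peak occurred more than 1 time in the assembled chromosomes for 6 of the first 20 kept sites, up to 48 times, and for none of 20 kept sites spaced evenly along the list. The first 3 kept sites were chr2:98507000-98507612 over an exon of Gm10800, chr12:3109718-3110330 and chr9:3024153-3024765 over an exon of Gm10718. They stood at places 1, 2 and 3 of the Junb-sufficient and 1, 3 and 2 of the Junb-deficient IRF4 list, and at places 1, 2 and 4 of the JunB list. Their JunB peaks, printed with the same capitals, hold many GAAA or TTTC words and no AP-1 site.
Gm10800 (chr2:98507239-98507389, plus strand, exon of Gm10800): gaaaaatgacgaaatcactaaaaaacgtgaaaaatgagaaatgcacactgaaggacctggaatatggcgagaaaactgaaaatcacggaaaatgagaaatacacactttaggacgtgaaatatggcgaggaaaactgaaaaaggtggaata
1700012B15Rik (chr12:3109943-3110093, plus strand, intergenic): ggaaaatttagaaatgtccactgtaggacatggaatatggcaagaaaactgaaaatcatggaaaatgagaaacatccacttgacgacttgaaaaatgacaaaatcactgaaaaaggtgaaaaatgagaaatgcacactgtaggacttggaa
Gm10718 (chr9:3024384-3024534, plus strand, exon of Gm10718): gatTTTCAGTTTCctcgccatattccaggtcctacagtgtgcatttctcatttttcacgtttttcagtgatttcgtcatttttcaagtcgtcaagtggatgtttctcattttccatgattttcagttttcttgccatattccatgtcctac

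Among the first 10 kept sites, 4 others had JunB places of 6, 7, 9 and 24, at chr9:35112744-35113356, chr6:103598908-103599520 in an intron of Chl1, chr9:3006542-3007154 and chr3:5860359-5860971. The remaining 3 lay at chr11:116267274-116267886 in an intron of Rnf157 (IRF4 place 8 with and 15 without Junb), at chr10:44164109-44164721 in an intron of Prdm1 (places 9 and 18) and at chr8:48026544-48027156, 45429 bp from Enpp6 (places 11 and 16). Their JunB peaks stood at places 344, 360 and 43, and their BATF peaks at 30, 22 and 13. The central bases of the JunB peak occurred a single time at these 3 and at chr9:35112744-35113356. Leaving out the first 20 places of the list left 6570 kept sites and the share of 73.5% as it was.

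The 5 kept sites that moved up the most came from far down the Junb-sufficient list, as a rise of their size requires. The site at chr7:119360949-119361561, 8115 bp from Mical2, stood at 95.6% with and 20.0% without Junb. The site at chrX:98874038-98874650 in an intron of Ogt, the enzyme that attaches N-acetylglucosamine to nuclear proteins, stood at 83.2% and 17.6%. The others lay near Ghsr (92.3 and 32.7%), Kpna2 (78.9 and 22.1%) and Masp2 (92.4 and 38.5%). Just inside the limit stood sites near Scaf8 (10.7 and 40.7%) and Efna5 (45.6 and 75.5%). Just outside it stood sites near Wwox (16.8 and 46.8%), Itgav (29.5 and 59.5%) and Casp8 (5.22 and 35.3%).

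JunB and BATF peaks at kept sites lay close to the IRF4 centre. The median distance between centres was 25 bp for JunB (quartiles 11 and 48), 21 bp for BATF (9 and 43) and 19 bp for IRF4 without Junb (8 and 37). A single JunB peak was present at 6458 kept sites, 130 held 2 and 1 held 3. The best JunB peak of a kept site stood at a median of 18.5% of the JunB list (quartiles 7.46 and 40.9%) and that of a missing site at 29.0%. For BATF the medians were 30.1% and 54.1%. Across the 6589 kept sites the IRF4 place followed that of BATF (Spearman rho 0.815) more closely than that of JunB (0.641), a description over sites that share 1 library for each protein. The JunB list was also called with other settings (peaks of 151 bp, tag threshold 10) than the BATF and IRF4 lists (613 bp, 19). The part of these settings was not tested. Of all 13570 BATF peaks, 6589 (48.6%) were the best BATF peak of a kept site.

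The rule favors sites high in the IRF4 list, so kept and missing sites were compared within 20 equal strata of IRF4 place. The Mantel-Haenszel odds ratio over strata is above 1 where a feature was more frequent at kept sites. Its intervals count peaks as units and cover counting error only. A JunB peak in the first 10% of the JunB list was present at 2104 kept sites (31.9%) and 224 missing sites (15.3%), a difference of 16.7 points (95% Newcombe interval 14.4 to 18.8). At like IRF4 place the direction turned, with an odds ratio of 0.618 (0.512 to 0.745). Between 20 and 40% of the IRF4 list, for example, 7.85% of kept and 12.4% of missing sites had such a JunB peak. For BATF the shares were 18.8% and 2.79%, and the odds ratio at like place was 1.17 (0.789 to 1.74), an interval that includes 1. It ranged from 0.628 (0.385 to 1.02) in the first 50% of each list to 4.6 (3.51 to 6.02) with BATF and IRF4 exchanged among the alternatives that kept the strata. At a given IRF4 place, missing sites thus more often had a JunB peak from the head of its list.

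Words known for transcription factors were then counted on either strand within 100 bp of IRF4 centres. The AP-1 site was TGAGTCA, or TGANTCA where any middle base was allowed. The others were the adjoining and spaced composites, the IRF pair (GAAA, 2 bases, then GAAA), an ETS-IRF composite (GGAA, 2 bases, then GAAA), CRE (TGACGTCA), ETS (CCGGAA), RUNX (TGTGGTT), STAT (TTCNNNGAA), forkhead (TGTTTAC), NFAT (TGGAAA), T-box (GGTGTGA), the word of GATA factors (AGATAA) and E-box (CACGTG). Both composites contain the AP-1 word, and the NFAT word contains GAAA. A match says only that the letters are there. As a background, windows of the same length 5 kb downstream of kept sites and clear of any peak were searched (n = 6376).

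TGAGTCA was held by 2369 kept sites (36%, 95% exact interval 34.8 to 37.1%), by 26.4% of all IRF4 peaks and by 4.06% of downstream windows. The IRF pair was held by 722 kept sites (11%), by 9.49% of all IRF4 peaks and by 3.14% of downstream windows. RUNX was at 13.5% (all IRF4 peaks 11.1%, downstream 5.18%), STAT at 12.9% (11.4% and 6.35%) and GATA at 19.2% (14.9% and 11.9%). ETS was at 2.67%, beside 6.28% of all IRF4 peaks and 1.96% of downstream windows. NFAT at 21.5% (19.0%) and forkhead at 2.78% (3.04%) stood near the level of downstream windows. The AP-1 word with any middle base and the IRF pair were seldom together. Of the kept sites 2657 (40.3%) held the AP-1 word alone, 520 (7.89%) the IRF pair alone, 202 (3.07%) both and 3210 (48.7%) neither. None of the 15 words was found at 1197 kept sites (18.2%). Where a kept site held a single AP-1 word (2417 sites), its middle lay a median of 24 bp from the JunB centre and 22 bp from the IRF4 centre.

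Kept sites held AP-1 words less often than missing sites, and IRF, RUNX and GATA words more often. TGAGTCA was found at 36% of kept and 53.0% of missing sites, a difference of 17 points in favor of missing sites, and the odds ratio at like IRF4 place was 0.444 (0.392 to 0.503). More than 1 AP-1 word with any middle base was held by 6.71% of kept and 15.8% of missing sites. The middle base was G or C in 79.7% of the words at kept and 81.1% at missing sites. The IRF pair was found at 11% of kept and 4.43% of missing sites (odds ratio 2.63, 2.00 to 3.46). RUNX, the word of factors that cooperate with FOXP3, was found at 13.5% and 7.43% (1.91, 1.53 to 2.38). GATA, the word of GATA3, was found at 19.2% and 14.4% (1.58, 1.33 to 1.87). ETS stood at 2.67% and 1.36% (1.91, 1.16 to 3.14). The intervals of CRE, STAT, forkhead, NFAT, T-box, E-box and the ETS-IRF composite included 1. The whole IRF4 lists differed in the same direction. TGAGTCA was held by 26.4% of Junb-sufficient and 17.3% of Junb-deficient IRF4 peaks, and the IRF pair by 9.49% and 11.7%. Whether the contrast of kept with missing sites goes beyond this difference between libraries was not tested.

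The intervals were widened to 99.88% to allow for the 40 comparisons of words, position and list place. The widened intervals of AP-1 (0.361 to 0.545), the IRF pair (1.68 to 4.13), RUNX (1.32 to 2.74) and GATA (1.19 to 2.08) still excluded 1, and that of ETS did not (0.842 to 4.32). Of 21 comparisons with missing sites, 8 excluded 1 at 95% and 7 when widened. For TGAGTCA and GATA the direction was the same at the head and the end of the list. In the first 10% of the IRF4 list 40.1% of kept and 52.8% of missing sites held TGAGTCA, and past 40% the shares were 32.7% and 50.8%. For GATA they were 17.7% and 9.26% in the first 10%, and 22.1% and 15.2% past 40%.

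The IRF pair, RUNX and GATA words were also compared by the presence of an AP-1 word. Among sites with no AP-1 word of any middle base, the IRF pair was held by 13.9% of 3730 kept and 5.37% of 559 missing sites (odds ratio 2.87, 1.94 to 4.24). RUNX was held by 14.9% and 8.05% (1.96, 1.40 to 2.75) and GATA by 20.2% and 13.2% (1.82, 1.39 to 2.38). Among sites with an AP-1 word, of which 2859 were kept and 909 missing, the IRF pair was held by 7.07% and 3.85% (1.62, 1.08 to 2.44), RUNX by 11.6% and 7.04% (1.69, 1.24 to 2.30) and GATA by 17.9% and 15.2% (1.37, 1.09 to 1.72). For GATA with an AP-1 word the difference, 2.76 points, had an interval of -0.0673 to 5.38 points without strata, which includes 0. These subgroups were formed after values were seen.

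**Figure D2:**
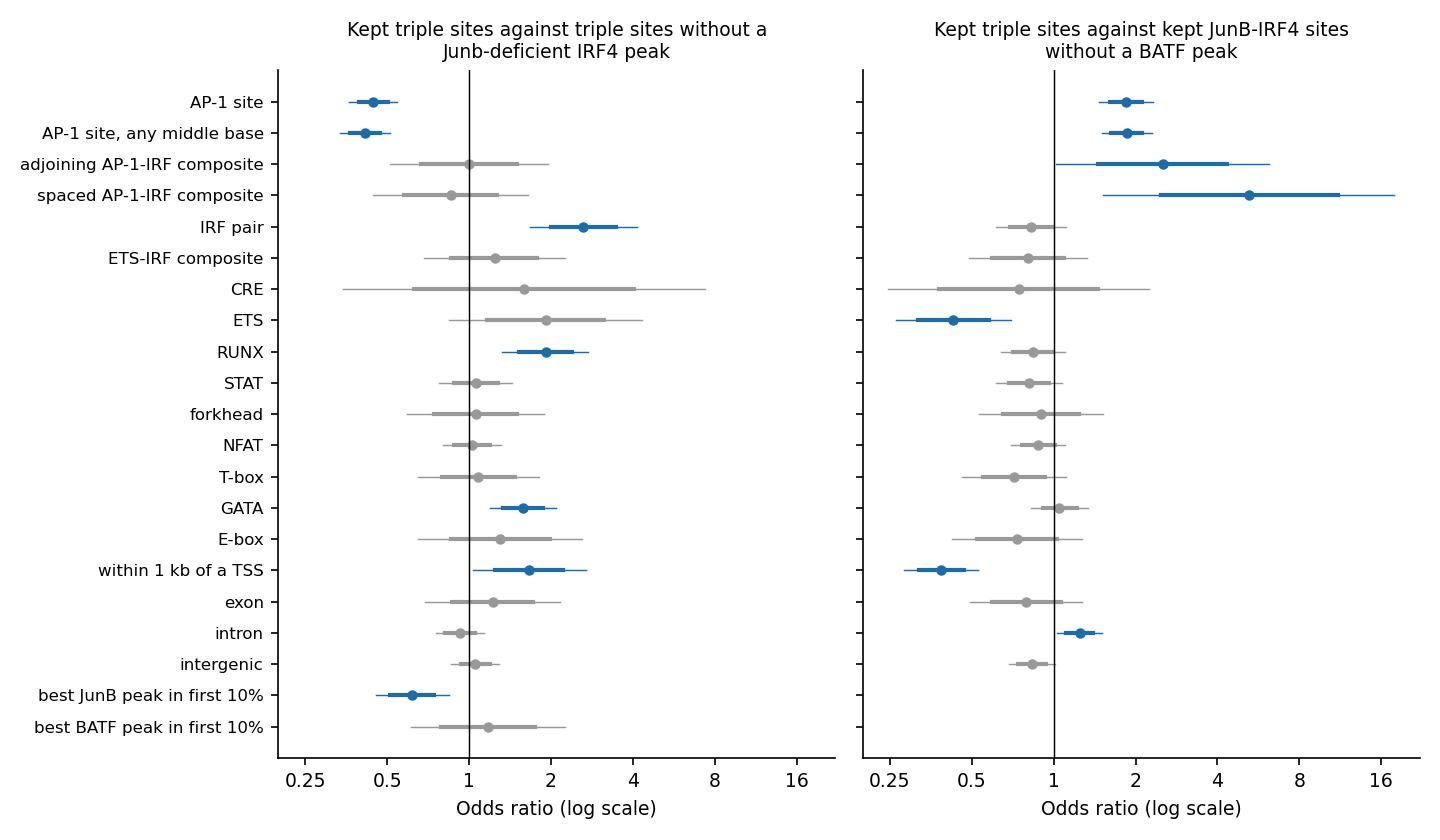
Mantel-Haenszel odds ratios (points, log axis) of words, position and list place for kept triple sites against missing sites (left) and against kept JunB-IRF4 sites without a BATF peak (right), with 95% intervals (thick) and intervals widened for 40 comparisons (thin). Blue marks the 14 comparisons whose widened interval excludes 1, among them TGAGTCA at 0.444 on the left and 1.84 on the right.

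The words were also counted in triple sites grouped by the shift in IRF4 place. The shift is part of the rule, the words are not. TGAGTCA was held by 24.3% of the 679 sites that moved up by over 10 points without Junb (95% exact interval 21.1 to 27.7%). The share was 28.3% of 1992 sites that moved up by at most 10 points, 38.4% of 2406 that moved down by under 10, 46.8% of 923 at 10 to 20 points and 48.6% of 589 at 20 to 30 points. Past the limit, it was 55.0% of 903 sites, and 53.0% of 1468 missing sites. The IRF pair stood at 15.6% of sites that moved up by over 10 points, at 6.07% and 6.45% of those 10 to 20 and 20 to 30 points lower, and at 4.43% of missing sites. RUNX went from 15.5% to 7.43%. GATA stood at 29.5% (26 to 33.0%) of sites that moved up by over 10 points and between 14.3 and 14.8% of sites that moved down by 10 points or more. The composites showed no such order, with the adjoining form between 2.04 and 3.43% and the spaced form between 1.70 and 3.03% over the groups. The groups differ in IRF4 place, with a Junb-sufficient median of 35.3% for sites that moved up by over 10 points and 7.98% for those that moved down by under 10, and the part of place in these shares was not tested.

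**Figure D3:**
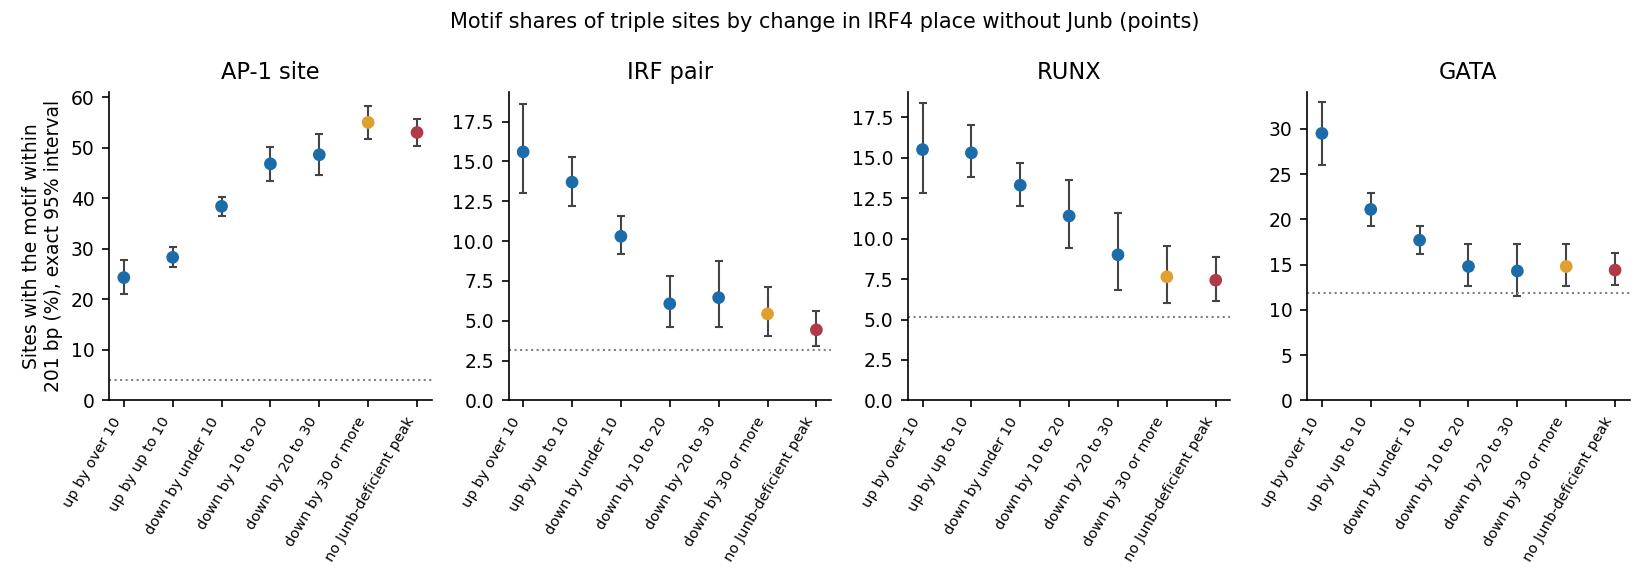
Percentage of triple sites with the AP-1 site, IRF pair, RUNX and GATA words, by the change in IRF4 place without Junb in points of list length, with exact 95% intervals, where blue marks kept sites, orange sites 30 points or more lower and red missing sites. The dotted line is the share in windows 5 kb downstream of kept sites, and AP-1 goes from 24.3 to 55.0% while GATA goes from 29.5 to 14.8%.

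Counted as exact words, composite elements made a small part of kept sites. Looser forms were not counted, and the paper's de novo search found AP-1-IRF composite motifs where JunB, BATF and IRF4 peaks overlapped. The adjoining composite was found at 188 kept sites (2.85%, beside 0.0627% of downstream windows) and the spaced composite at 172 (2.61%, beside 0.110%), so that 357 sites (5.42%) held at least 1 of them and 3 held both. Missing sites held them at 2.38% and 2.59%. The differences were 0.469 points (95% Newcombe interval -0.519 to 1.26) and 0.0219 points (-0.988 to 0.832), and the odds ratios 1.000 (0.667 to 1.5) and 0.854 (0.574 to 1.27), intervals that include no difference. Since missing sites held more AP-1 words, the share among sites with an AP-1 word was also compared, after values were seen. It was 6.58% of kept and 3.85% of missing sites for the adjoining form (odds ratio 1.58, 1.04 to 2.39), and 6.02% and 4.18% for the spaced form (1.33, 0.892 to 1.99). For either form it was 12.5% and 8.03% (1.47, 1.09 to 1.97).

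The spacing of GAAA from the AP-1 word was sharp at kept sites. GAAA that reads towards TGANTCA directly adjoined it at 189 of 2859 kept sites (6.61%), while the next most frequent of the gaps from 0 to 20 bases, a gap of 3, had 77 and the median over gaps was 55.0. The count is 1 above that of the composite, because here GAAA could lie just outside the window. On the other strand, TTTC stood 4 bases from the AP-1 word at 172 kept sites (6.02%) and 6 bases from it at 106 (3.71%), also with a median of 55.0 over gaps. The same gaps led at missing sites, with 35 (3.85%) directly adjoining and 38 (4.18%) at 4 bases.

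**Figure D4:**
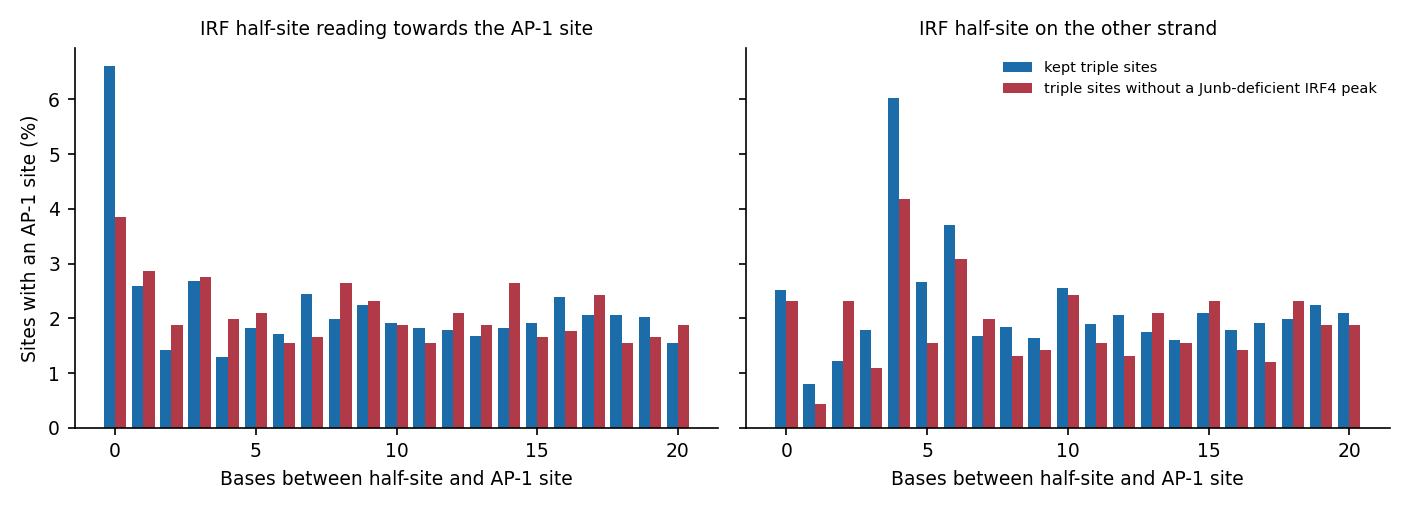
Percentage of sites with an AP-1 word (vertical) that have an IRF core at each distance in bases from it (horizontal), for kept sites (blue) and missing sites (red), with the core on the strand that reads towards the AP-1 word (left) or on the other strand (right). The bars stand out at 0 bases on the left (6.61% of kept sites) and at 4 bases on the right (6.02%).

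Kept sites were next set beside the 1873 kept JunB-IRF4 sites that had no BATF peak and met the same rule. AP-1 words were more frequent at the triple sites, with TGAGTCA at 36% against 21.9% (odds ratio 1.84, 1.61 to 2.12). The adjoining composite was found at 2.85% against 0.908% (2.52, 1.46 to 4.35) and the spaced composite at 2.61% against 0.534% (5.22, 2.47 to 11.1). ETS was less frequent, at 2.67% against 6.03% (0.428, 0.317 to 0.576). GATA (19.2 and 19.9%) and NFAT (21.5 and 22.9%) had intervals that included 1. The IRF pair (11 and 12.4%), RUNX, STAT and T-box were lower at triple sites by 95% intervals that the allowance for 40 comparisons widened past 1. Of 19 comparisons here 12 excluded 1 at 95% and 7 when widened. With BATF and IRF4 exchanged, as in the antibody field, 1 of the 15 words had an interval that excluded 1, in place of 9. The adjoining composite, among those 9, had no odds ratio under the exchange.

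By position, 3340 kept sites (50.7%) lay in introns of protein-coding genes, 3041 (46.2%) between genes and 208 (3.16%) in exons. Within 1 kb of a protein-coding TSS lay 420 (6.37%), and 1818 (27.6%) lay at 1 to 10 kb, 3495 (53.0%) at 10 to 100 kb and 856 (13.0%) farther away. Missing sites lay within 1 kb of a TSS at 4.02%, with an odds ratio of 1.66 (1.24 to 2.22). This ratio was 1.22 (0.937 to 1.59) where peak centres had to lie within 100 bp and 1.09 (0.761 to 1.56) in the first 50% of each list. The shares in introns (51.9% of missing sites) and between genes (45.0%) had intervals that included 1. Kept JunB-IRF4 sites without BATF lay within 1 kb of a TSS at 16.9%, an odds ratio for triple sites of 0.385 (0.319 to 0.466). With BATF and IRF4 exchanged, this ratio was 0.961 (0.543 to 1.70), an interval that includes 1. Their median GC content was 44.3%, that of kept triple sites 41.8% and that of missing sites 40.8%.

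Genes of Treg cells and their factors were taken from 8 lists of 61 genes, chosen with earlier results of these data known. Up to 100 kb from their TSS were 566 IRF4 peaks, 222 triple sites and 184 kept sites, and 54 genes had at least 1 kept site. The share of all protein-coding genes with a kept site that near was not counted. The 54 therefore cannot be read as particular to these genes. Kept sites were 82.9% of the triple sites (exact interval 77.3 to 87.6%), beside 74.1% of the triple sites within 100 kb of any protein-coding TSS. The kept share depends on IRF4 place, which was not held alike here, and its part was not tested. By list, only chemokine and homing receptors had an interval that excluded 74.1%. Neighboring genes such as Ctla4 with Icos, Il4 with Il13 and Tnfrsf18 with Tnfrsf4 share peaks, which were counted 1 time per list. Which gene a site acts on is not given by distance.

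**Figure D5:**
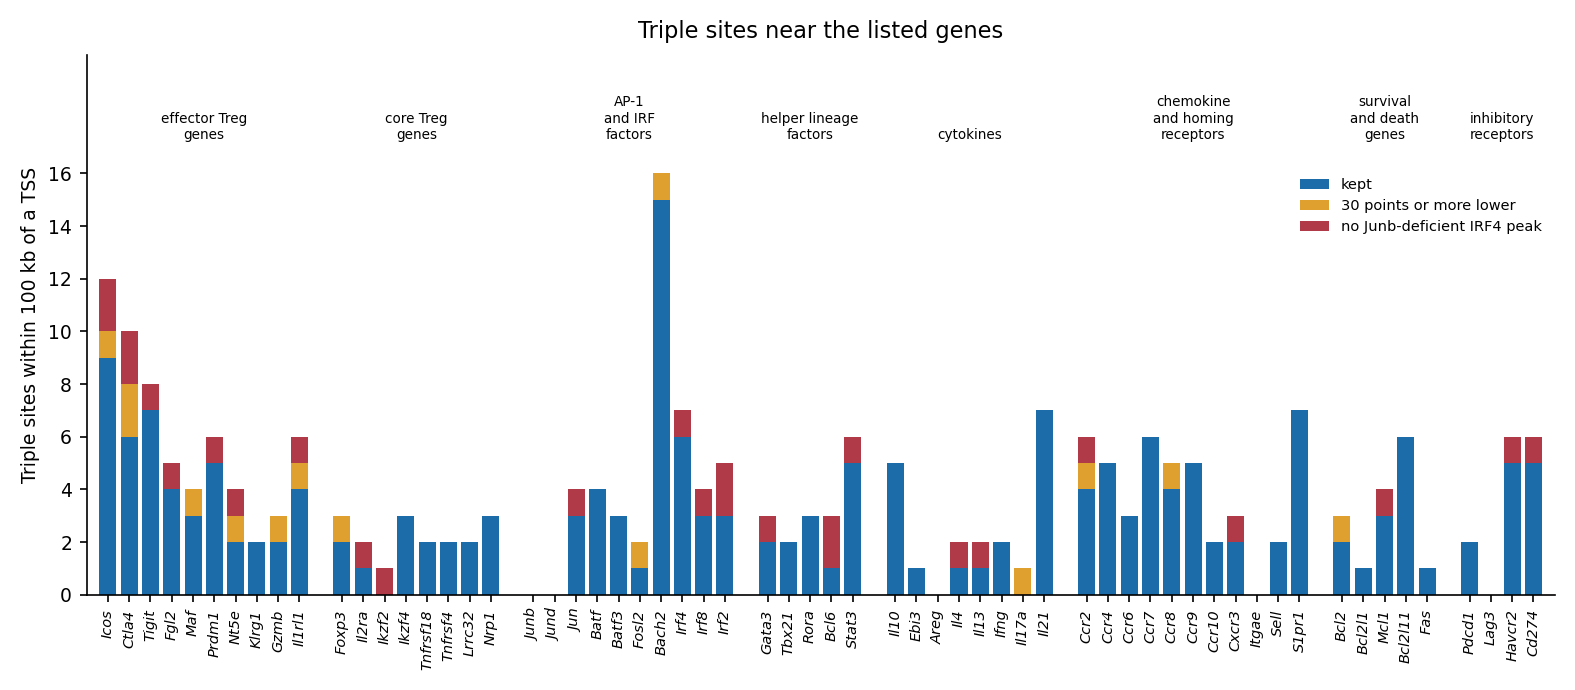
Number of triple sites (vertical) within 100 kb of a TSS of each of 61 listed genes (horizontal, grouped by list), divided into kept sites (blue), sites 30 points or more lower without Junb (orange) and missing sites (red). Bach2 has 15 kept sites of 16, Il21 and S1pr1 have 7 of 7, and Junb, Jund, Areg, Itgae and Lag3 have no triple site.

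Effector Treg genes had 53 triple sites, of which 39 were kept (73.6%, exact interval 59.7 to 84.7%, which includes 74.1%). Of the others, 6 stood 30 points or more lower and 8 were missing. All 10 genes had a kept site, a count with no share over all genes to set beside it. Icos had 9 kept of 12 triple sites and Ctla4 6 of 10. At Icos 1 site stood 30 points or more lower and 2 were missing, and at Ctla4 these numbers were 2 and 2. The best kept site of both genes was chr1:60995729-60996341, with places 192 and 175 in the IRF4 lists, 390 in the JunB list and 244 in the BATF list. Prdm1, which encodes the repressor Blimp-1, had 5 kept sites of 6, and the best of them was at IRF4 place 9 with and 18 without Junb, 360 for JunB and 22 for BATF. Tigit, an inhibitory receptor, had 7 of 8, the best at places 554 and 403. Il1rl1, the receptor of IL-33, had 4 of 6, and its best site moved from place 355 to 3227 while staying within the limit. Maf, a basic leucine zipper factor itself, had 3 of 4, the best at 1158 and 3859.

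Among core Treg genes 13 of 16 triple sites were kept (81.2%, exact interval 54.4 to 96.0%, which includes 74.1%). Foxp3 had 2 of 3, the best in an intron of Ppp1r3f (chrX:7142479-7143091), 14017 bp from the Foxp3 TSS. Il2ra, the high-affinity IL-2 receptor chain, had 1 of 2, at place 441 with and 3515 without Junb. Nrp1 had 3 of 3 (best at places 77 and 83), and Tnfrsf18 and Tnfrsf4, neighboring costimulatory receptor genes, shared 2 of 2 (best at 86 and 246). That best site lay in an intron of Sdf4, 63 bp from the Sdf4 TSS. Ikzf2, which encodes Helios, had 1 triple site, which was missing without Junb.

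Genes of the factors themselves had 38 kept sites of 45 (84.4%, exact interval 70.5 to 93.5%). Bach2, a repressor that competes for AP-1 sites, had 15 of 16, the best at chr4:32675117-32675729 (places 23 and 161, 451 for JunB and 54 for BATF). Irf4 had 6 of 7, with the best at chr13:30839119-30839731, 1670 bp from its TSS, at place 232 with and 44 without Junb. Batf had 4 of 4, each with TGAGTCA, and Batf3 3 of 3 (best at 66 and 159). The best site of Batf lay 93478 bp from its TSS and nearer Jdp2, and that of Batf3 95381 bp away and nearer Atf3. Junb and Jund had 7 and 8 IRF4 peaks but no triple site. Of lineage factors 13 of 17 were kept (76.5%, 50.1 to 93.2%). Gata3, the T helper 2 factor, had 2 of 3 (best at 1586 and 486), Rora 3 of 3 (best at 300 with Junb), Tbx21 2 of 2 (536 and 445) and Stat3 5 of 6 (946 and 553).

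Of the cytokine genes, 16 of 18 triple sites were kept (88.9%, exact interval 65.3 to 98.6%). Il10, which encodes an inhibitory cytokine of effector Treg cells, had 5 of 5, the best at chr1:132890192-132890804, 25924 bp from its TSS, with IRF4 places 263 and 594. Il21 had 7 of 7 (73 and 129). The single triple site of Il17a, a T helper 17 cytokine, stood 30 points or more lower without Junb. Il4 and Il13 shared 1 kept site of 2, in the intron of Rad50 at chr11:53470242-53470854, with IRF4 places 41 and 60, JunB place 93 and BATF place 20. Among chemokine and homing receptors 40 of 44 were kept (90.9%, 78.3 to 97.5%). S1pr1, the receptor for exit from lymphoid tissue, had 7 of 7 (157 and 698) and Ccr7 6 of 6 (364 and 249). Ccr4 (252 and 419) and Ccr9 (280 and 1024) each had 5 of 5. Ccr8 had 4 of 5 (156 and 146). Of survival and death genes 13 of 15 were kept (86.7%, 59.5 to 98.3%). Bcl2l11, which encodes the death protein Bim, had 6 of 6 (28 and 75) and Mcl1 3 of 4 (1341 and 137). Of inhibitory receptors, a list that also held the ligand gene Cd274, 12 of 14 were kept (85.7%, 57.2 to 98.2%). Havcr2 (99 and 120) and Cd274 (514 and 515) each had 5 of 6. The best site of Cd274 lay in an intron of Pdcd1lg2, 86695 bp from the Cd274 TSS.

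Kept sites were nearest to 3930 protein-coding genes in all, to 2622 of them with a single site and to 158 with 5 or more. Myc, the growth regulator, came first, with 25 kept of 35 triple sites spread over 1391 kb and up to 859 kb from its TSS. Gata3 followed with 22 of 27 over 1159 kb, then Cblb, a ubiquitin ligase that restrains T cell activation, with 19 of 23. Bach2 had 16 of 17, Inpp4b 16 of 20, Foxp1 15 of 17, Klf6 15 of 19, Ptger4 15 of 15, Akap13 12 of 13 and Ets1, level with other genes at 11 kept sites, 11 of 19. The 15 sites nearest Foxp1, a forkhead factor of resting T cells, stood at a median IRF4 place of 1.17%, and those nearest Ptger4, a prostaglandin E2 receptor, at 12.6%. A further kept site lay within 10000 bp of 950 kept sites (14.4%), and the median distance to the next was 41648 bp.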

How the data were processed

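Uniquely placed reads on mm9 (Bowtie2) were used by the authors, who called peaks in each library by itself with HOMER (4.8 per the labels), without a control library, at a false discovery rate of 0.001, 4-fold over the surrounding 10 kb and at most 1 tag per bp. The deposited BED lists hold positions, and their score column, always 1, was left unused. The methods state that ChIP-seq was repeated, and 1 list per condition was used here. What the lists are sorted by is not named in them. Rank correlation of row number with the number in the peak name was 0.978 and 0.983 for IRF4, 0.958 for BATF and 0.745 for JunB.

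Starts were counted from 1. Sequence came from NCBIM37 (mm9), with gene models from GENCODE vM1 (70008 TSS positions of protein-coding transcripts). Motifs were fixed words. Shares have exact binomial (Clopper-Pearson) intervals, differences Newcombe intervals, and odds ratios Mantel-Haenszel estimates with Robins-Breslow-Greenland intervals. All cover counting error over peaks only. Sites named were the first 10 kept sites, the 5 that moved up most, 3 on each side of the limit, the best site of each listed gene, the 10 genes nearest to most kept sites, and composite sequences by list order, passing over chromosome 18, and a few of these are not reported here. Subgroups by AP-1 word, extra sequences, leaving out the first 20 places and places from peak names were chosen after seeing the data. Motif windows, overlap, place limit, strata, list length and the exchange of BATF and IRF4 were varied. Sites, lists and genes were chosen with earlier results of these data known. Procedures were tested on simulated data. Python 3.11.15, NumPy 2.4.6, SciPy 1.17.1, pandas 2.3.3 and matplotlib 3.10.9 were used.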

Additional observations from a re-analysis of the deposited data

How the results depend on the processing

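The results were recomputed under 16 alternatives, of which leaving out the first 20 places and placing peaks by the number in their name were chosen after seeing the data, as was applying any alternative to the comparison with JunB-IRF4 sites. The share of triple sites kept, 73.5%, was 68.7% with peak centres within 100 bp, 71.5% with an overlap of at least 50% of the narrower peak, 83.6% without a place limit, 56.7% with a limit of 10 points, 70% in the first 50% of each list (3686 sites in place of 6589), 78.9% with BATF and IRF4 exchanged and 75.3% with places from peak names. Against missing sites, the odds ratio of TGAGTCA ranged from 0.367 to 0.541 over 14 alternatives, that of the IRF pair from 2.13 to 3.04, of RUNX from 1.69 to 2.68 and of GATA from 1.38 to 2.11, all with 95% intervals that excluded 1. The number of the 4 positions that differed was 0 with centres within 100 bp and 0 in the first 50% of the lists, in place of 1. The odds ratio of a JunB peak in the first 10% was 2.61 without strata, in place of 0.618, since kept sites stand higher in the IRF4 list. That of a BATF peak was 1.51 with centres within 100 bp, 1.46 with 50% overlap, 4.6 with BATF and IRF4 exchanged and 8.08 without strata, each excluding 1, and was 0.628 in the first 50% of the lists and 0.871 for the first 25% of the BATF list, with intervals that included 1. Against JunB-IRF4 sites, exchanging BATF and IRF4 left 1 word and 0 positions with intervals excluding 1, and the first 50% of the lists left 1 position. The exchange also moved ETS to 2.55, STAT to 1.57, T-box to 1.30, introns to 0.930 and intergenic sites to 1.11. Their 95% intervals all included 1, so no reversal is established, and the cause of these shifts was not tested. No paired analysis was possible because each condition had 1 library. Without heights per peak, a shift in place is no measure of binding strength.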
